A study of Saccharomyces cerevisiae with 136 samples.

Results

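Slow-dividing mother cells of budding yeast isolated 36 h after birth (36-h/S) were compared, over all genes, with slow-dividing mother cells isolated 16 h after birth (16-h/S). The comparison used 18 36-h/S cells and 17 16-h/S cells, 35 of the 125 cells in the deposited expression table and of the 136 in the series. Every cell was a wild-type haploid of strain BY4742 grown on SD agar plates and picked by hand by microdissection, and the sample titles name BY4741 where the strain labels name BY4742. A cell was slow-dividing when it had passed fewer generations (daughters removed) than the mean of its age group, which gave generation 8 to 17 at 36 h and generation 5 to 8 at 16 h. The 36-h/S cells had thus lived longer than the 16-h/S cells and had divided more often, apart from 1 36-h/S cell at generation 8. Mean division rates were 0.389 generations per hour in 36-h/S and 0.445 in 16-h/S. The table also held 27 fast-dividing 36-h cells (36-h/F), 26 fast-dividing 16-h cells (16-h/F) and 37 cells of 2 h. Each cell was lysed to make its library, so no 36-h/S cell is a 16-h/S cell followed further, and the labels name no separate cultures. Each subgroup was therefore treated as 1 sample, the SDs below are among cells, and no test was run. The labels name no batch, and library batches, if there were any, cannot be told apart from the time of isolation.

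Replicative ageing in yeast is counted in the daughters that a mother cell buds off before it stops dividing. Budding yeast meets heat, oxidation, salt and lack of nutrients with a common programme, the environmental stress response, in which the transcription factors Msn2 and Msn4 bind stress response elements in the promoters of defence genes. The same programme lowers the genes of ribosomal proteins, ribosome assembly and translation, which take a large share of the transcripts of a growing cell. Iron uptake is driven by the factor Aft1, and amino acid synthesis by the factor Gcn4.

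Expression was measured per cell with Smart-seq2, which copies polyadenylated RNA from an oligo-dT primer and counts reads without molecular identifiers. The deposited values are log2 of normalized counts plus 1, so a gene with no reads stands at 0. Within 1 cell, a difference of 1 is a doubling of normalized counts plus 1. Reads on genes were 40883 to 456439 per 36-h/S cell (median 186022) and 100162 to 545273 per 16-h/S cell (median 199571). A read was worth a median of 1.90 normalized counts in 36-h/S cells (0.641 to 9.39) and 0.838 in 16-h/S cells (0.410 to 2.43), through the size factors of the authors. Normalized counts per cell summed to a median of 320678 in 36-h/S and 210555 in 16-h/S, and every difference below was also computed with all cells scaled to the same sum. Genes detected numbered 1940 ± 516 in 36-h/S cells and 2112 ± 534 in 16-h/S cells (SD among cells), or 1709 and 1773 after each cell was thinned to 40000 reads. Neither LYS2, which BY4742 lacks, nor STE2, the pheromone receptor of a-mating cells, had a read in any of the 35 cells; for either gene this allows reads in up to 8.57% of cells and sets no limit on cells that express it. The other 2 a-specific genes in the table had reads in 4 of 18 36-h/S cells and 3 of 17 16-h/S cells, with summed levels of up to 151 and 216 normalized counts. Alpha-specific genes had reads in 12 of 18 36-h/S and 13 of 17 16-h/S cells. Genes made by new daughters after separation, which would mark daughters left attached, summed to a median of 361 normalized counts in 36-h/S (0 to 7602) and 188 in 16-h/S (0 to 4030), and their part in the results was not tested.

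Which genes differ as slow-dividing cells age was asked first over all genes. Of 1836 genes with a mean level of at least 2, 186 were at least 2 higher in 36-h/S, which is 10.1% of the genes, and 95 were at least 2 lower, which is 5.17%. A difference of 2 in mean log2 values is not a 4-fold difference of mean counts, since cells without reads enter at 0. By the log2 ratio of mean normalized counts, 244 genes were at least 2 higher and 18 at least 2 lower. The median difference over these genes was 0.13. With all cells scaled to the same sum, 124 of 1857 genes (6.68%) were at least 2 higher and 180 (9.69%) at least 2 lower, around a median of −0.27, so the share of higher genes among those past 2 was 66.2% with the size factors of the authors and 40.8% with the same sum. Past 2 in the same direction under both scalings were 124 higher (6.78%) and 95 lower (5.19%) of 1829 genes. No gene separated the subgroups: for 0 of the 1836 genes did every 36-h/S cell lie on one side of every 16-h/S cell. At the edge of the threshold, SNC1 (2.00) was counted and UBC13 (1.997) was not, and ERG2 (−2.00) was counted where RPO21 (−1.998) was not.

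For the 186 higher and the 95 lower genes, the share of cells with reads and the level within those cells were taken apart. The higher genes had reads in a median of 72.2% of 36-h/S cells and 41.2% of 16-h/S cells, and within the cells that had reads their median level was 6.97 in 36-h/S and 4.85 in 16-h/S. The lower genes had reads in a median of 44.4% of 36-h/S cells against 88.2% of 16-h/S cells. Where reads were present their median level was 6.01 in 36-h/S and 6.28 in 16-h/S. Within cells with reads the median difference was 2.07 for the higher genes and −0.44 for the lower genes, and 70 of the 95 were lower there. Over all 1836 genes the median difference within cells with reads was 0.87, and 398 genes were lower. Both sets thus lay away from the all-gene value within cells with reads, on opposite sides of it. After thinning to 40000 reads the shares for the lower genes were 44.4% in 36-h/S and 82.4% in 16-h/S.

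Genes of the general stress response, the targets of Msn2 and Msn4, were higher in 36-h/S. Of 39 listed stress genes past the filter, 26 were at least 2 higher and 0 at least 2 lower, against 10.1% and 5.17% of all genes, and 49 of all 50 listed genes had a positive difference. The mean level over the list was 0.72, 5.24 and 7.56 in the lowest, median and highest 36-h/S cell, against 0.50, 1.79 and 4.13 in 16-h/S cells. It averaged 4.50 ± 2.07 in 36-h/S and 2.06 ± 1.02 in 16-h/S (SD among cells), a difference of 2.44 (2.15 with the same sum). 11 of the 18 36-h/S cells lay above every 16-h/S cell, while the lowest 36-h/S cells lay among the 16-h/S cells.

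CTT1, the cytosolic catalase that breaks down hydrogen peroxide, had the largest difference of all genes past the filter. Its lowest, median and highest levels were 0, 8.20 and 11.66 in 36-h/S cells and 0, 0 and 7.20 in 16-h/S cells, a difference of means of 5.56. Reads of CTT1 were found in 14 of 18 36-h/S cells (77.8%, exact 95% interval 52.4 to 93.6%) and in 3 of 17 16-h/S cells (17.6%, 3.80 to 43.4%). Such intervals cover counting error only. ALD4, the mitochondrial aldehyde dehydrogenase, had 0, 7.51 and 9.90 in 36-h/S cells and 0, 0 and 5.32 in 16-h/S cells, 5.24 apart, with reads in 16 and 6 cells. ALD3, a cytosolic aldehyde dehydrogenase, was 4.48 higher, with 40.4% of its 50-base stretches also found elsewhere in the genome, so its reads may include those of its paralog. PNC1, the nicotinamidase that turns nicotinamide, an inhibitor of Sir2, into nicotinic acid, had reads in all 18 36-h/S cells and in 11 16-h/S cells. Its levels were 3.10, 8.87 and 10.98 in 36-h/S, against 0, 6.26 and 9.24 in 16-h/S, a difference of 4.29. In both ALD4 and PNC1 most 36-h/S cells were above the median 16-h/S cell, and the subgroups overlapped.

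Stress chaperones did not move as 1 group. HSP42, a small heat shock protein that sorts misfolded proteins, was 3.55 higher (reads in 12 36-h/S and 7 16-h/S cells), and HSP26, the other small heat shock protein, 3.37 higher (8 and 2 cells). HSP104, the disaggregase that pulls proteins out of aggregates, was the 1 listed stress gene with a negative difference: 0, 5.24 and 10.66 in 36-h/S cells and 0, 5.32 and 8.66 in 16-h/S cells, a difference of −0.30. Its direction depended on the measure, with 1.22 as the log2 ratio of mean normalized counts and 0.28 in cells whose ERCC share did not exceed 0.5. Of 20 cytosolic chaperone genes past the filter, 4 were at least 2 higher and 1 at least 2 lower. Over all genes 10.1% were higher and 5.17% lower by as much. The higher genes were HSP42, HSP26, SSE2 (2.52, a nucleotide exchange factor of Hsp70) and SIS1 (2.18, an Hsp40 cochaperone). The lower gene was SSA2 (−2.11), an Hsp70. The whole chaperone list differed by 0.49, or by 0.13 with the same sum.

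**Figure D1:**
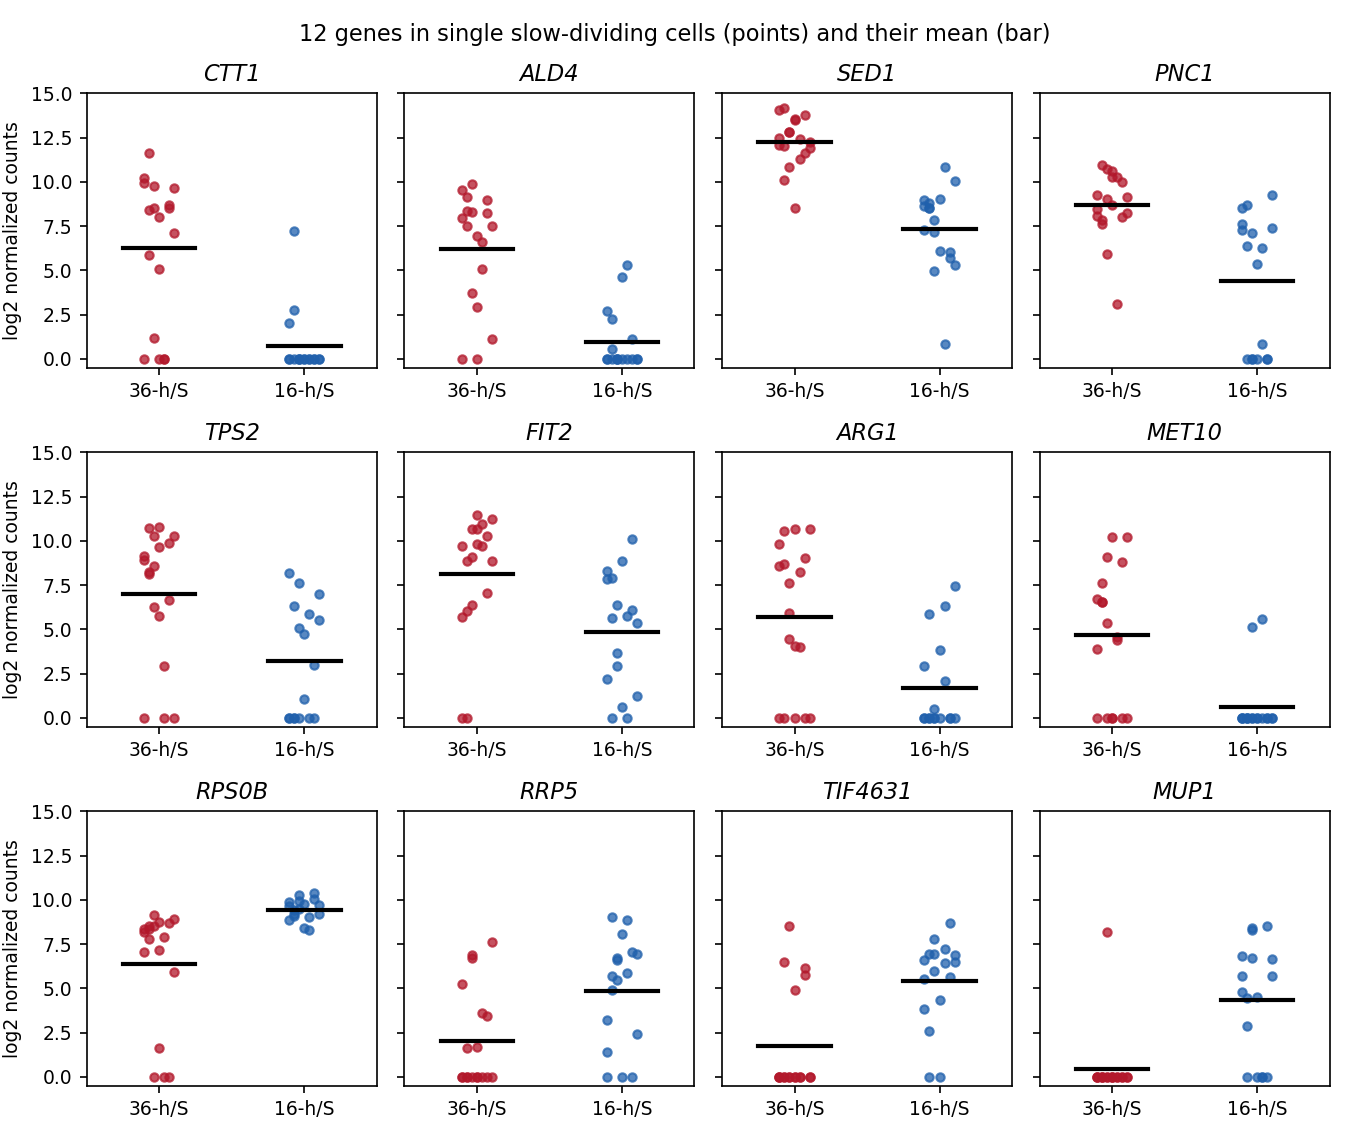
Level of 12 genes (log2 normalized counts, y axis) in every 36-h/S cell (left, 18 points) and 16-h/S cell (right, 17 points) of each panel, with the subgroup mean as a bar. CTT1 stands at 0 in 4 of 18 36-h/S cells and in 14 of 17 16-h/S cells, and RPS0B spans 0 to 9.17 in 36-h/S and 8.28 to 10.40 in 16-h/S.

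The promoters of these genes are shown because the stress response element is the sequence that Msn2 and Msn4 recognise and the genes with the largest differences often held it. The sequences are from the RefSeq assembly R64 and run 5′ to 3′ on the strand of the gene over bases −250 to −101 relative to the start of the annotated gene. Capitals mark AGGGG or its reverse complement CCCCT. CTT1 (chrVII:654384-654533, plus strand) and STL1 (chrIV:1507755-1507904, plus strand) each held 1 copy, as did ALD3 (chrXIII:600973-601122, minus strand) and SED1 (chrIV:600543-600692, plus strand). PNC1 (chrVII:428048-428197, minus strand) held 2 copies set 1 base apart.
CTT1: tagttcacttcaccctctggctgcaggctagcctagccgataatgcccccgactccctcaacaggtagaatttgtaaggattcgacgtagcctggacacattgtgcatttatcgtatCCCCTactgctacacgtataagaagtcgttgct
STL1: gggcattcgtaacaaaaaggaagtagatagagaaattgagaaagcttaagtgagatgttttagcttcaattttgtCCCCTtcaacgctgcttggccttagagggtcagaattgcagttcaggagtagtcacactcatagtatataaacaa
ALD3: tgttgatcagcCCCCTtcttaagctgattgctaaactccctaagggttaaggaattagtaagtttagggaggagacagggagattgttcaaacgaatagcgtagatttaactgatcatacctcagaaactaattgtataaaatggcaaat
SED1: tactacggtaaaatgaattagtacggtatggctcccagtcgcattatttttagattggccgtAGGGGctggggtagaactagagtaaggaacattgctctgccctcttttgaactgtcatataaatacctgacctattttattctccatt
PNC1: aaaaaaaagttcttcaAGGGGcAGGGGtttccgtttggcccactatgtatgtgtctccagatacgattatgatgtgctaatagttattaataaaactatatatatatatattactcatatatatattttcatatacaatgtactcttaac

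AGGGG on either strand, searched from 250 bases before to 50 bases after the start, was present in 10 of 14 promoters of the 15 genes with the largest differences (71.4%, CRS5 being annotated there as a pseudogene and not searched) and in 73 of 181 promoters of genes at least 2 higher (40.3%). It was present in 12 of 95 promoters of genes at least 2 lower (12.6%), in 26.3% of promoters of genes past the filter and in 21.6% of all 6001 promoters. Among the 50 listed stress genes, 32 promoters held it (64%), and the list itself was drawn from known targets of the element. A match says that the letters are present and not that a factor was bound.

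STL1, the glycerol symporter that is switched on by osmotic stress, had almost no reads in 16-h/S. Its lowest, median and highest levels were 0, 6.95 and 10.71 in 36-h/S cells, against 0, 0 and 0.93 in 16-h/S cells, a difference of 5.33. Reads were found in 11 of 18 36-h/S cells and in 1 of 17 16-h/S cells. The cells without reads, in either subgroup, are not shown to lack STL1 transcripts. DAK1, a dihydroxyacetone kinase of the glycerol pathway, was 4.10 higher. SED1, a major glycoprotein anchored in the cell wall, came nearest to separating the subgroups. Its levels were 8.55, 12.35 and 14.18 in 36-h/S cells and 0.85, 7.85 and 10.82 in 16-h/S cells, and the means were 12.24 ± 1.44 and 7.33 ± 2.37 (SD among cells), 4.91 apart. A random 36-h/S cell exceeded a random 16-h/S cell in SED1 with a probability of 0.97. SED1 took a median of 0.0939% of the reads on genes at 2 h, 0.119% in 16-h/S and 1.75% in 36-h/S, with 7.26% in the highest 36-h/S cell.

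Carbohydrate reserve genes were higher as well. Of 7 trehalose and glycogen genes past the filter, 5 were at least 2 higher, TPS2, PGM2, UGP1, GSY2 and TPS1 (2.33), and 0 at least 2 lower. Over all genes 10.1% were higher and 5.17% lower by as much. The count of 5 was 4 with the same sum and 3 with a pseudocount of 10. TPS2, which makes trehalose from its phosphate, had 0, 8.42 and 10.79 in 36-h/S cells against 0, 2.97 and 8.17 in 16-h/S cells, a difference of 3.81. PGM2, phosphoglucomutase, was 3.50 higher, UGP1, which makes UDP-glucose, 3.15 higher, and GSY2, glycogen synthase, 2.94 higher. IGD1, an inhibitor of glycogen breakdown, was 5.06 higher, with reads in 14 36-h/S and 2 16-h/S cells. Over all 22 listed genes the mean level was 2.82 ± 1.30 in 36-h/S and 1.60 ± 1.03 in 16-h/S, 1.22 apart.

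Oxidative defence genes followed CTT1 in part. Of 29 past the filter, 7 were at least 2 higher, against 10.1% of all genes, and 0 at least 2 lower, and 27 of all 37 had a positive difference, against 3354 of all 5997 genes. The count was 4 with the same sum and 2 with a pseudocount of 10. ZTA1, a quinone oxidoreductase, was 3.62 higher, GSH1, the first enzyme of glutathione synthesis, 3.23 higher, and PRX1, the mitochondrial peroxiredoxin, 3.17 higher. YAP1, the transcription factor of the oxidative response, had 0, 4.24 and 9.09 in 36-h/S cells and 0, 3.60 and 7.19 in 16-h/S cells, −0.09 apart. YHB1, a flavohaemoglobin that detoxifies nitric oxide, was among the 15 lowest genes at −3.31, with reads in 7 36-h/S and 15 16-h/S cells. CRS5, a copper-binding metallothionein, was 4.35 higher.

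Amino acid synthesis genes were higher in 36-h/S, unevenly among cells. Of 34 Gcn4-regulated genes past the filter, 6 were at least 2 higher and 2 at least 2 lower, THR1 (−2.72), homoserine kinase, and ASN2 (−2.52), an asparagine synthetase, against 10.1% and 5.17% of all genes, and 34 of all 41 had a positive difference. The list averaged 4.38 ± 1.88 in 36-h/S and 3.43 ± 0.89 in 16-h/S, a difference of 0.94, which was 0.68 without 1 36-h/S cell (C18), whose level of 8.79 was the highest. The highest 16-h/S cell stood at 4.61, and 7 of 18 36-h/S cells lay above it. ARG1, argininosuccinate synthetase of arginine synthesis, had 0, 6.78 and 10.67 in 36-h/S cells against 0, 0 and 7.47 in 16-h/S cells, 3.98 apart. LEU4 and LEU1, of the first steps of leucine synthesis, were 3.32 and 2.94 higher, and CPA1, which makes carbamoyl phosphate for arginine, 2.95 higher with reads in all 18 36-h/S cells. Among cells in which 1 read was worth at most 2.5 normalized counts (13 36-h/S and 17 16-h/S cells), 14 genes of the list were at least 2 higher. The count was 5 with the same sum, 6 after thinning, 3 with a pseudocount of 10 and 6 with generation 8 to 14 only.

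Genes of sulphate assimilation and methionine synthesis lay on both sides. MET10, a subunit of sulphite reductase, had 0, 4.96 and 10.24 in 36-h/S cells and 0, 0 and 5.57 in 16-h/S cells, a difference of 4.04, with reads in 12 and 2 cells. MET5, the other subunit, was 2.17 higher and MET6, methionine synthase, 2.18 higher. Of 9 methionine and sulphur genes past the filter, 4 were at least 2 higher, the fourth being MET14 (2.01), and 1 lower. Over all genes 10.1% were higher and 5.17% lower by as much. The difference of the whole list of 23 genes was 0.47, or 0.26 without cell C18. 5 of the 18 36-h/S cells lay above every 16-h/S cell in this list and 6 below every one, and with the same sum 1 gene was at least 2 higher and 2 lower. The lower gene was MUP1, the high-affinity methionine permease and the lowest of all genes past the filter. MUP1 had 0, 0 and 8.16 in 36-h/S cells against 0, 4.82 and 8.53 in 16-h/S cells, −3.86 apart. Its reads were in 1 of 18 36-h/S cells (5.56%, exact 95% interval 0.14 to 27.3%) and 12 of 17 16-h/S cells (70.6%, 44 to 89.7%). BAP3, a permease of branched-chain amino acids, had reads in 4 36-h/S and 15 16-h/S cells and a difference of −3.76. The other 3 amino acid permeases past the filter did not pass 2 in either direction.

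Iron uptake genes were mixed. Of 16 past the filter, 2 were at least 2 higher, near the 10.1% of all genes, and 0 lower, and with the same sum 2 were higher and 2 lower. The list averaged 2.65 ± 0.91 in 36-h/S and 2.30 ± 0.70 in 16-h/S, 0.36 apart, or 0.11 with the same sum. ARN1, a transporter of iron-siderophore complexes, was 3.96 higher. FIT2, a cell wall mannoprotein that holds siderophores, had 0, 9.40 and 11.47 in 36-h/S cells against 0, 5.63 and 10.11 in 16-h/S cells, a difference of 3.26. Reads of FIT2 were in 16 of 18 36-h/S and 15 of 17 16-h/S cells, so this gene differed in level rather than in the share of cells. FIT3, its relative, differed by 1.15, with 0, 9.63 and 12.70 in 36-h/S and 0, 6.84 and 11.67 in 16-h/S, and FET3, the iron oxidase of the high-affinity system, by 0.57. AFT1, the factor that switches these genes on, was −1.995, just short of the threshold, with reads in 3 36-h/S and 11 16-h/S cells. Its mean normalized counts were nearly equal, 33.47 in 36-h/S and 33.55 in 16-h/S, so the difference depended on the measure. The FIT2 promoter (chrXV:1059281-1059430, plus strand, bases −250 to −101) is shown because it held 2 copies of the Aft1 element GGGTGC or its reverse complement, in capitals.
FIT2: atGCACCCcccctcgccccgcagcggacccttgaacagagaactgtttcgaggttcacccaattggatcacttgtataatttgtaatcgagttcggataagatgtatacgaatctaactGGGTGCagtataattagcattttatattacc
GGGTGC was found on either strand in 58.1% of the 31 promoters of the iron list, in 4.25% of all promoters and in 8.29% of those of genes at least 2 higher. The AGGGG and GGGTGC searches can share bases, since both hold a run of G.

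Cytosolic ribosomal protein genes were lower in 36-h/S. Of 133 past the filter, 18 were at least 2 lower and 0 at least 2 higher, against 5.17% and 10.1% of all genes, and 124 of all 138 listed had a negative difference. Their mean level per cell was 2.83, 5.72 and 7.57 in the lowest, median and highest 36-h/S cell, against 5.29, 7.12 and 7.62 in 16-h/S cells. The means were 5.64 ± 1.14 and 6.72 ± 0.80 (SD among cells), −1.08 apart, or −1.58 with the same sum. 5 of the 18 36-h/S cells lay below every 16-h/S cell and 0 lay above. Under the same sum 43 of the genes were at least 2 lower, but by the log2 ratio of mean normalized counts only 1 was.

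RPS0B, a protein of the small ribosomal subunit, had the clearest separation among the ribosomal genes. Its levels were 0, 8.04 and 9.17 in 36-h/S cells and 8.28, 9.47 and 10.40 in 16-h/S cells, −3.06 apart, and a random 36-h/S cell exceeded a random 16-h/S cell with a probability of 0.06. RPL23A, of the large subunit, was −3.02, and RPS14B, of the small subunit, −3.00, with reads in 2 36-h/S and 10 16-h/S cells. RPS21A was −2.82. Many ribosomal protein genes are pairs of near-identical copies, and reads could have been split between them in the counting. Of the 133 genes, a median of 16.5 had no reads in a 36-h/S cell (2 to 70), against 2 in a 16-h/S cell (0 to 21). After thinning to 40000 reads these medians were 18 and 4.

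**Figure D2:**
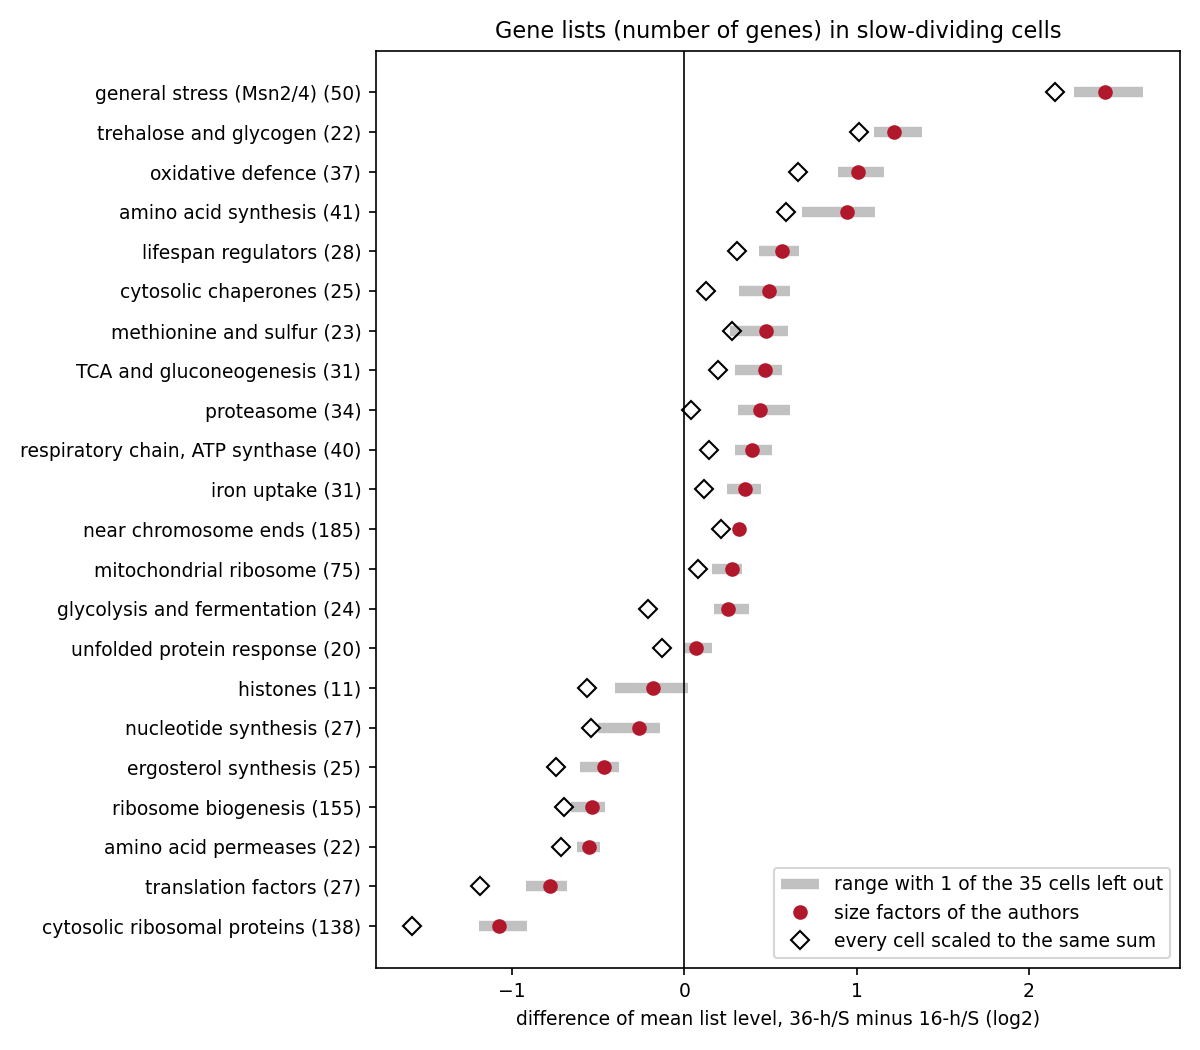
Difference of the mean level (36-h/S minus 16-h/S, log2 normalized counts, x axis) of 22 gene lists, with the size factors of the authors and with every cell scaled to the same sum; bars give the lowest and highest value when each cell was left out in turn. The general stress list lies at 2.44 and 2.15 and the ribosomal protein list at −1.08 and −1.58.

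Translation and ribosome assembly were lower with them. Of 26 translation factor genes past the filter, 3 were at least 2 lower, against 5.17% of all genes, and 0 higher, and by the ratio of means or with a pseudocount of 10 none was at least 2 lower. The median difference of the list, −0.70, was 0.27 by the ratio of means. TIF4631, the scaffold eIF4G of the cap-binding complex, had 0, 0 and 8.50 in 36-h/S cells against 0, 6.43 and 8.68 in 16-h/S cells, a difference of −3.64, with reads in 5 and 15 cells. TEF4, a subunit of elongation factor eEF1B, was −2.52 and overlaps another annotated gene, and SUP45, the release factor that reads stop codons, −2.03. THS1, which charges threonine tRNA, was −3.31. Of 35 ribosome biogenesis genes past the filter, 6 were at least 2 lower and 0 higher, against 5.17% and 10.1% of all genes. TIF6, RRP5, MAK21 and NHP2 were the lowest of the 6. With a pseudocount of 10 the count of lower genes was 0. By the ratio of means 1 gene was at least 2 lower and 1 at least 2 higher, so the count then leaned neither way. Of all 155 listed genes, 109 had a negative difference, against 2585 of all 5997 genes. TIF6, which keeps the large subunit from joining the small one too early, had 0, 4.38 and 10.29 in 36-h/S cells and 0, 7.18 and 9.81 in 16-h/S cells, −3.14 apart. RRP5, needed for processing of ribosomal RNA for both subunits, had 0, 0 and 7.61 in 36-h/S cells and 0, 5.70 and 9.01 in 16-h/S cells, −2.79 apart. NSR1, a nucleolar protein of the same group, differed by −1.19.

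The TIF6 promoter (chrXVI:593170-593319, minus strand) and the RRP5 promoter (chrXIII:731224-731373, minus strand) are shown because they hold the 2 elements known from ribosome biogenesis genes. Capitals mark AAAATTTT (the RRPE core, its own reverse complement) and GATGAG (the PAC core) on either strand, again from −250 to −101 on the strand of the gene. In RRP5 the PAC letters occur in overlapping copies.
TIF6: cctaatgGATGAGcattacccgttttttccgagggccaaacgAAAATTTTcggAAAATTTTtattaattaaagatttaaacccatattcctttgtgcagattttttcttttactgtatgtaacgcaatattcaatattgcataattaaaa
RRP5: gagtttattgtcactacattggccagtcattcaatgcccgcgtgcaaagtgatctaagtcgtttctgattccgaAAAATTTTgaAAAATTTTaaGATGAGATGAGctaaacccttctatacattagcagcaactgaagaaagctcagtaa
AAAATTTT was present in 25 of 95 promoters of genes at least 2 lower (26.3%), in 6.08% of those at least 2 higher, in 9.03% of all 6001 promoters and in 72.3% of the 155 ribosome biogenesis promoters. GATGAG was present in 23.2% of promoters of genes at least 2 lower, in 16.0% of those at least 2 higher and in 20.4% of all.

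Other genes with low values in 36-h/S belonged to several pathways. CMR2 was −3.38, with reads in 4 36-h/S and 10 16-h/S cells. ELO3, an elongase of very long fatty acids, was −3.13 (reads in 6 36-h/S and 14 16-h/S cells). SPF1, an ATPase of the endoplasmic reticulum, was −3.31, with 7 and 16 cells. Of 16 ergosterol genes past the filter, 2 were at least 2 lower, HMG1 (−2.19), the reductase that starts the pathway's committed part, and ERG2 (−2.00), and 1 was higher, ERG8 (2.62), the phosphomevalonate kinase, against 5.17% and 10.1% of all genes. ERG2 lies at the threshold, and with a pseudocount of 10 no gene of this list was at least 2 lower. PRS1, a synthetase of the ribose phosphate donor of nucleotides, was −3.03, URA1, dihydroorotate dehydrogenase of pyrimidine synthesis, −2.53, and URA5 −2.02, while ADE4, the first enzyme of purine synthesis, was 2.69 higher. RNR1, the large subunit of ribonucleotide reductase, made in late G1 and S phase, had reads in 3 36-h/S and 10 16-h/S cells and a difference of −2.99. DSE2, made by new daughters to part from the mother, had reads in 2 and 10 cells and a difference of −3.10, and CLN1, a G1 cyclin, in 4 and 9 cells and a difference of −2.16. HTA1, a histone H2A gene, was 2.07 higher, the only histone of 9 past the filter to pass 2, about the 10.1% of all genes. It was 1.61 higher with the same sum and 0.54 higher in cells whose ERCC share did not exceed 0.5. HTB1, a histone H2B gene, was −1.985, just short of the threshold. The histone list differed by −0.18, with 4 members higher and 7 lower.

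Genes of central carbon metabolism lay on both sides. The glycolysis and fermentation list differed by 0.25 with the size factors of the authors and by −0.21 with the same sum, so its direction depends on the scaling. Within it TDH1 and TDH2, isozymes of glyceraldehyde-3-phosphate dehydrogenase, had opposite signs. TDH1 had 0, 9.22 and 11.90 in 36-h/S cells against 0, 6.03 and 8.22 in 16-h/S cells, 4.07 higher. TDH2 had 0, 8.44 and 10.52 in 36-h/S cells against 7.61, 10.56 and 11.16 in 16-h/S cells, −2.81 apart. The pair kept opposite signs with the same sum (3.51 and −3.39), and 15.7% and 31.3% of their 50-base stretches occur elsewhere in the genome. HXK1, hexokinase 1, and GLK1, glucokinase, were 3.63 and 2.66 higher. HXT1, the low-affinity glucose transporter, had 9.56, 11.17 and 12.18 in 36-h/S cells and 6.37, 9.73 and 11.05 in 16-h/S cells, 1.54 apart.

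Of 16 genes past the filter in the joint list of citric acid cycle, glyoxylate and gluconeogenesis genes, 4 were at least 2 higher and 2 lower. Over all genes 10.1% were higher and 5.17% lower by as much. With the same sum 2 genes of this list were at least 2 higher and 3 lower. MDH1, the mitochondrial malate dehydrogenase, was 3.15 higher, PYC2, a pyruvate carboxylase, 2.43 higher, LSC2, of succinyl-CoA ligase, 2.08 higher, and CIT2, the peroxisomal citrate synthase and a target of retrograde signalling from mitochondria, 2.11 higher. RTG2, a sensor of that signalling, was 3.01 higher, with reads in 14 36-h/S and 8 16-h/S cells. IDH2, a subunit of isocitrate dehydrogenase, was −2.69 with 0, 3.15 and 9.27 in 36-h/S cells and 0, 6.42 and 9.67 in 16-h/S cells. ACO1, aconitase, had reads in 10 of 18 36-h/S cells and all 17 16-h/S cells. Its levels were 0, 6.18 and 12.19 in 36-h/S and 2.54, 8.05 and 10.02 in 16-h/S, −2.14 apart, but the log2 ratio of mean normalized counts was 1.09. MPC3, a subunit of the mitochondrial pyruvate carrier, was 4.08 higher. Respiratory chain genes had 2 of 21 at least 2 higher, about the 10.1% of all genes, and 0 lower, and with the same sum 0 were higher. COR1, of complex III, was below the filter at 2.67 in 36-h/S and 0.24 in 16-h/S, and COX4, of complex IV, had reads in 3 and 2 cells.

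Protein quality control genes showed few differences past 2. Of 34 proteasome genes 2 were at least 2 higher and 1 lower, smaller shares than the 10.1% and 5.17% of all genes. The higher genes were RPT1 (2.63), an ATPase of the regulatory particle, and RPN6 (2.59), which holds lid and base together. The lower gene was RPN7 (−2.06) of the lid. RPN4, the transcription factor of proteasome genes, differed by −0.27, and HAC1, that of the unfolded protein response, by 0.03, with 5.02, 8.24 and 9.64 in 36-h/S cells and 5.27, 7.87 and 10.03 in 16-h/S cells. The level of HAC1 transcripts does not measure their splicing. None of the 7 genes of the unfolded protein response past the filter passed 2 in either direction, against 10.1% and 5.17% of all genes. So few genes say little beside those shares, and with the same sum 1 was at least 2 lower. The sign of that list's difference depended on the scaling (0.07 and −0.13).

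The 2-h cells, all at generation 1, gave a baseline for the main lists. Ribosomal protein genes took a median of 20.5% of the reads on genes at 2 h, 16.3% in 16-h/S and 7.20% in 36-h/S. General stress genes took 0.308%, 0.895% and 3.15% in the same order. These shares do not depend on size factors. The ranges at the later times overlapped: the ribosomal share was 2.32 to 16.1% in 36-h/S and 8.41 to 22% in 16-h/S. Glycolysis genes took 12.5% at 2 h, 12.6% in 16-h/S and 7.83% in 36-h/S.

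**Figure D3:**
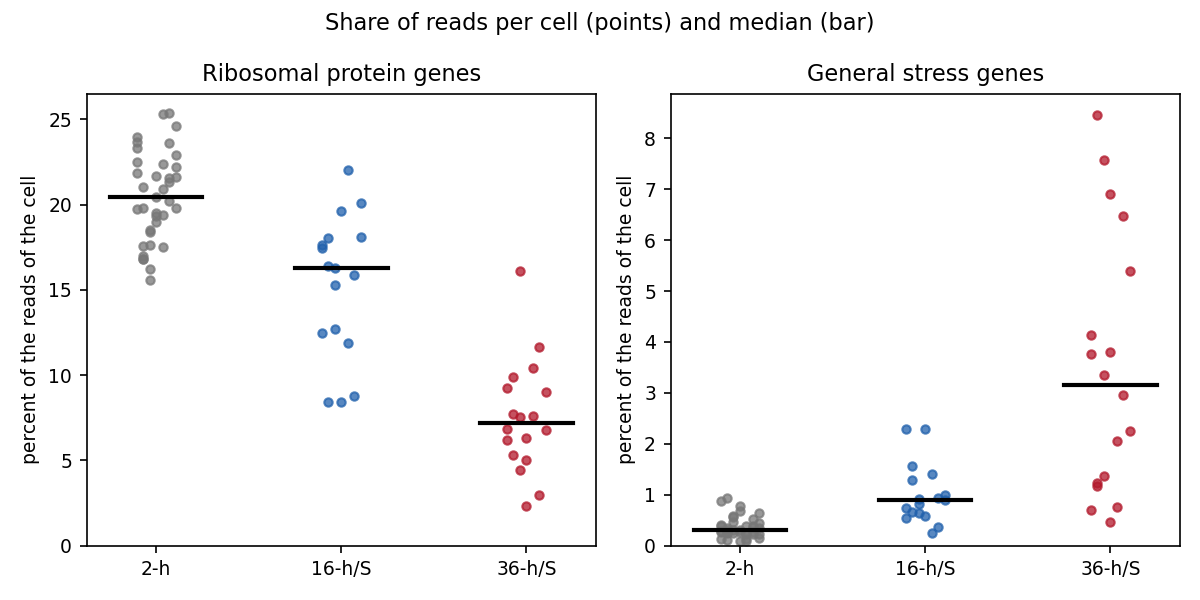
Percent of the reads on genes (y axis) taken by ribosomal protein genes and by general stress genes in each cell of 2 h, 16-h/S and 36-h/S, with medians. The ribosomal medians are 20.5, 16.3 and 7.20%, and the stress medians 0.308, 0.895 and 3.15%.

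Cells within 36-h/S differed from each other more than cells within 16-h/S. Each cell's distance to the average profile of its own subgroup (1 minus the Pearson correlation over genes) was 0.428 ± 0.047 in 36-h/S and 0.362 ± 0.050 in 16-h/S (SD among cells). Over 212 genes with a level of at least 6, the median SD among cells was 2.47 in 36-h/S and 1.57 in 16-h/S, and 178 of them had the larger SD in 36-h/S. Ribosomal protein genes among them (84) had a median SD of 2.29 in 36-h/S and 1.06 in 16-h/S. After thinning, the medians over the 212 genes were 2.56 and 1.62, and in cells where 1 read was worth at most 2.5 normalized counts they were 1.87 and 1.57, with 134 genes larger in 36-h/S.

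The correlation of the stress and the ribosomal level over cells was −0.30 (Pearson; Spearman −0.18) in the 18 36-h/S cells and 0.38 (0.33) in the 17 16-h/S cells. Without the 2 cells whose ribosomal level lay farthest from the median the Pearson values were −0.29 in 36-h/S and 0.28 in 16-h/S. With every cell scaled to the same sum the values over all cells were −0.29 in 36-h/S and 0.40 in 16-h/S. Without the 2 farthest cells they were −0.03 and 0.28 under that scaling. The 36-h/S value moved to −0.03 only when the scaling and the cells were both changed. The ribosomal level also moved with the worth of a read, with Spearman values of −0.62 in 36-h/S and −0.63 in 16-h/S, and the part of this in the results was not tested.

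**Figure D4:**
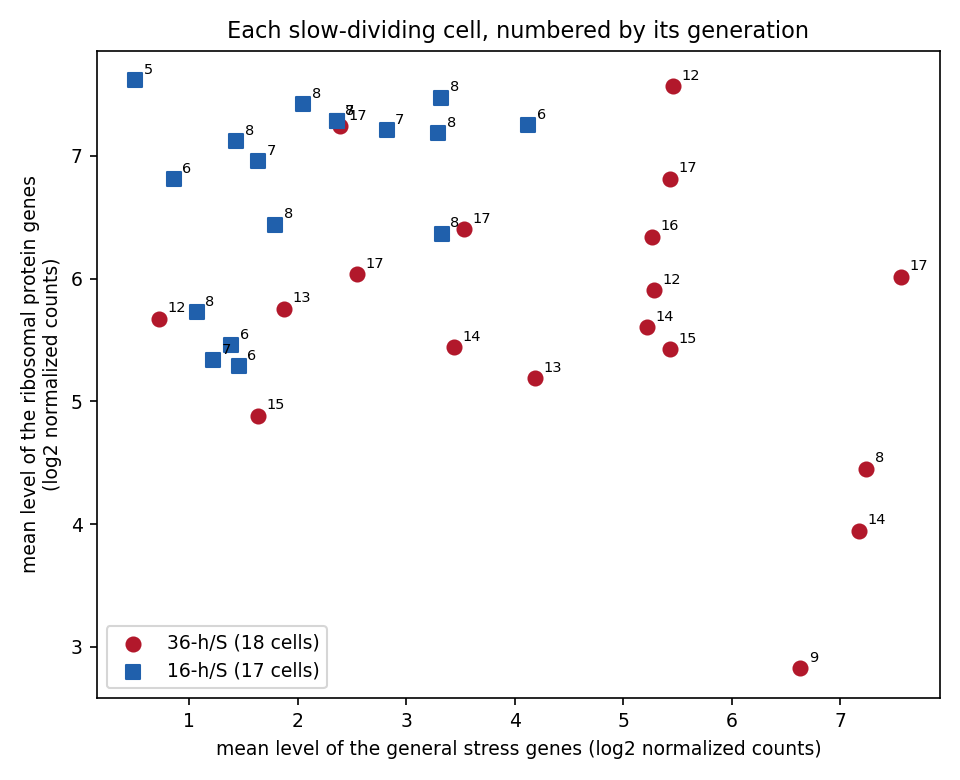
Mean level of the general stress list (x axis) against that of the ribosomal protein list (y axis), both in log2 normalized counts, for each 36-h/S and 16-h/S cell, numbered by generation. The 36-h/S cells spread from 0.72 to 7.56 in stress and from 2.83 to 7.57 in ribosomal level, the 16-h/S cells from 0.50 to 4.13 and from 5.29 to 7.62.

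Whether the levels went with generation was examined inside 36-h/S, where it ran from 8 to 17. The ribosomal level had a Pearson correlation of 0.58 with generation (Spearman 0.52, 18 cells), which was 0.25 once the 2 cells with the most distant generations, 8 and 9, were left out, so the relation rests on those cells. Their ribosomal levels were 4.45 and 2.83, and their stress levels 7.24 and 6.63. The stress level correlated with generation at −0.25 (Spearman −0.18), or 0.12 without those 2 cells. Generation 8 was the only generation found at both times, in 1 36-h/S cell and 8 16-h/S cells. At that generation the stress level was 7.24 in the 36-h/S cell and 1.07 to 3.33 in the 16-h/S cells, and the ribosomal level 4.45 in the 36-h/S cell and 5.72 to 7.47 in the 16-h/S cells. The number of divisions being equal, the 1 36-h/S cell lay outside the range of the 16-h/S cells in both lists, and time since birth and division rate still differed.

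The fast-dividing cells give the same difference in time side by side. Of 2166 genes past the filter, 155 (7.16%) were at least 2 higher and 46 (2.12%) at least 2 lower in 36-h/F than in 16-h/F. Of the 186 genes at least 2 higher in 36-h/S, 160 were also above 0 in the fast comparison and 70 at least 2 higher, with a median of 2.63 in slow and 1.46 in fast cells. Of the 95 lower genes, 75 were below 0 in the fast comparison and 12 at least 2 lower, with medians of −2.33 in slow and −0.87 in fast cells. The genes were chosen on their slow values. The general stress list differed by 2.44 in slow and 2.85 in fast cells, and the ribosomal list by −1.08 and −1.15. CTT1 (5.56 and 5.68) and STL1 (5.33 and 5.03) had differences of similar size in slow and fast cells. The median difference over the amino acid genes was 1.04 in slow and 0.09 in fast cells.

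Some genes differed in slow cells and not alike in fast cells, and none of these gaps was tested. MET10 differed by 4.04 in slow cells and −0.08 in fast cells, RTG2 by 3.01 and −0.05, and BAP3 by −3.76 and −0.16. HSP104 differed by −0.30 in slow cells and 2.94 in fast cells, where it had reads in all 27 36-h/F cells (8.07 ± 2.29) and in 23 of 26 16-h/F cells (5.13 ± 2.65). IDH2 (−2.69 and 1.13) and ACO1 (−2.14 and 1.21) had opposite signs, lower in slow and higher in fast 36-h cells, though ACO1 in slow cells turned by the ratio of means as given above. PYC2 (2.43 and −2.07) went the other way. URA1 (−2.53 and −2.54) and RRP5 (−2.79 and −2.75) were lower in both.

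**Figure D5:**
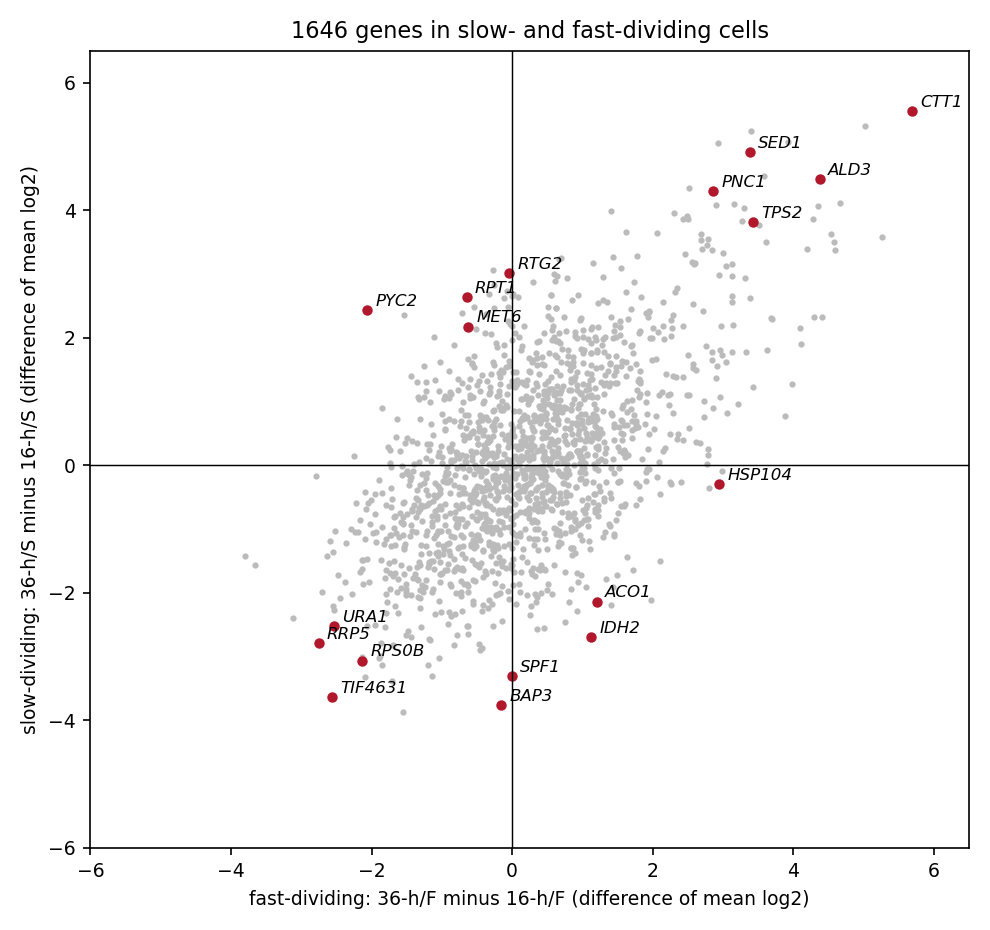
Difference between 36 h and 16 h in fast-dividing cells (x axis) and in slow-dividing cells (y axis), in log2 normalized counts, for 1646 genes past the filter in both. 1120 genes have the same sign in both. CTT1 (slow 5.56, fast 5.68) lies far up, while HSP104 (slow −0.30, fast 2.94) and PYC2 (slow 2.43, fast −2.07) lie off the diagonal.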

How the data were processed

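Per the labels and the methods of the study, the authors aligned Smart-seq2 reads to build R64 with HISAT2 2.1.0, used SAMtools 1.1, counted reads per gene with featureCounts (strand setting not given in the sources used here), normalized with size factors and deposited log2 values of normalized counts plus 1 for 5997 genes in 125 cells. Whole reads were recovered from these values (largest deviation 7.37e-05 of a read, tolerance 0.05) to give depth, shares and thinned values. 62.9% of values were 0. Slow-dividing cells were assigned from the generation of each cell in the study's cell table and the study's rule.

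Each subgroup was 1 sample, so differences of mean log2 values were given with SDs among cells and no test. Named were the 15 largest and 15 smallest differences among genes with a mean level of at least 2, the 4 most different members of each of 38 lists, and 15 genes listed by name. SNC1, UBC13, RPO21, SSA2, TPS1, THR1, ASN2, MET14, LSC2 and TAR1 were chosen after their values were seen. Lists and members were chosen with earlier results of these data known. Shares of cells have Clopper-Pearson 95% intervals. Of the identifiers, 5693 were found in the RefSeq annotation and 304 were not. Alternatives were another scaling, filters, pseudocounts, thresholds, thinning and leaving out each cell. Python 3.11.15, numpy 2.4.6, pandas 2.3.3, scipy 1.17.1 and matplotlib 3.10.9 were used, and the difference script was tested on simulated data.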

Additional observations from a re-analysis of the deposited data

How the results depend on the processing

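With 186 genes at least 2 higher and 95 at least 2 lower in 36-h/S, the count of lower genes was 180 with every cell scaled to the same sum, 167 in cells whose ERCC share did not exceed 0.5, and 190 with 36-h/S cells of generation 8 to 14 only, an alternative added after seeing the data. A pseudocount of 10 left 57 higher and 4 lower genes, and the log2 ratio of mean normalized counts gave 244 higher and 18 lower. Cells in which 1 read was worth at most 2.5 normalized counts, also added after seeing the data, gave 308 higher and 81 lower genes, and a threshold of 1 gave 491 and 375. Leaving out each cell in turn gave 173 (without 36-h/S cell C18) to 213 higher and 86 to 119 lower genes (119 without C18). The difference of ACO1, −2.14, was 1.09 as the log2 ratio of mean normalized counts, and was the 1 value with a changed sign among values past 2. Against 18 ribosomal protein genes at least 2 lower, 43 were counted with the same sum, 26 at low ERCC shares, 46 at generation 8 to 14, 2 with a pseudocount of 10 and 1 by the ratio of means. The causes were not tested. The distance of cells from their mean profile differed by 0.0658, and by 0.0485 to 0.0772 under its alternatives. Of 88 named genes past 2, 69 stayed past 2 without any 1 cell and 31 under every other alternative. Leaving out 1 cell moved STL1 within 5.01 to 5.64.

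No paired analysis was possible because each cell was lysed at 1 time and the cell numbers match no cell at 16 h with a cell at 36 h. The depth limits low genes: a gene without reads in a cell is not shown to be silent there, and 1 read was worth more in 36-h/S cells. Intervals cover counting error only.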

Other observations

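Some genes outside the comparisons above also differed. TAR1, which lies within the ribosomal DNA repeat and was chosen after its values were seen, had 7.22, 9.17 and 11.23 in 36-h/S cells and 6.25, 8.17 and 9.55 in 16-h/S cells, with means of 9.21 and 8.11, 0.50 apart with the same sum and 0.60 apart in the fast-dividing cells. The 185 genes within 20000 bases of a chromosome end averaged 1.12 ± 0.26 in 36-h/S and 0.80 ± 0.20 in 16-h/S (SD among cells), and 124 of them had a positive difference, against 3354 of all 5997 genes. Of the 20 past the filter, 4 were at least 2 higher, ARN1, HXK1, MSC1 and AAD4, against 10.1% of all genes, and 0 lower. The 6 genes of the mitochondrial genome averaged 2.70 ± 1.16 in 36-h/S and 1.97 ± 0.79 in 16-h/S, COX2 (1.26) and COB (1.36) among them, both of which overlap other annotated genes. The 42 genes with reads in all 125 cells had a median difference of 0.05, or −0.55 with the same sum. Sporulation genes, silent in dividing haploids, had reads from 15 of 18 genes in 36-h/S and 12 of 18 in 16-h/S, with summed medians of 40.7 and 11.1 normalized counts.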
